A study of Mus musculus with 6 samples.

Results

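The mitochondrial ribosomal protein genes are described here through every probe of an Illumina mouse bead array whose platform gene symbol begins with Mrpl or Mrps followed by a number. Of 45281 probes, 132 met this rule and stood for 76 genes. A probe was counted as detected on an array when its detection p-value, the chance of such a signal from the negative-control beads, was under 0.01. Of these, 113 probes of 73 genes were detected on at least 1 of the 6 arrays and form the set described below: 71 probes of 46 large-subunit (Mrpl) genes and 42 probes of 27 small-subunit (Mrps) genes. Detection on all 6 arrays was reached by 103 of the 113, and the other 10 were detected on 1 to 5 arrays. No probe of Mrpl19, Mrpl32 or Mrps14 was detected on any array.

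Mitochondria keep their own ribosome, which translates the few proteins encoded by mitochondrial DNA, all of them core subunits of the respiratory chain and ATP synthase. Its RNAs come from mitochondrial DNA, whereas all its proteins are encoded in the nucleus, made in the cytosol and imported. Some of these proteins descend from bacterial ribosomal proteins and others are found only in mitochondria, and inherited faults in several of them cause cardiomyopathy or encephalopathy in humans. Heart and skeletal muscle are rich in mitochondria, the heart more so than fast muscles such as the tibialis anterior of the lower leg.

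The arrays came from mice lacking miR-214 (knockout, KO) and from wild-type (WT) mice, and the study's stated purpose was to compare the genotypes within each of 3 settings. The settings were the heart at postnatal day 14 (P14 heart), the heart at 8 weeks (adult heart) and the tibialis anterior at 8 weeks. Each setting had 1 WT and 1 KO array, each made from material of 3 pooled mice, so a KO minus WT difference within a setting had no replicate and is given as values with no test. The strain background is given as mixed and the sex as male for all 6 groups, and the labels do not say how the deletion was made or whether littermates were used. MiR-214 lies within the Dnm3 gene on chromosome 1 and is not measured by this array, so its loss could not be checked. The 2 mature forms of the deleted microRNA are shown with the seed, bases 2 to 8, in capitals, taken from RefSeq on build GRCm38.p6 (chr1:162223397-162223418 and chr1:162223438-162223459, both on the plus strand).
mmu-miR-214-5p: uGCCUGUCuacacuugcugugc
mmu-miR-214-3p: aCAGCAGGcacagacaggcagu

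Promoters of 4 of the genes are shown next: those of Mrps10 and Mrps18b, of which all 3 probes were called higher in muscle than in heart, that of Mrpl53, which holds 2 ETS cores, and that of Mrps9, for a gene that differed the other way. Mrps10 (chr17:47368947-47369246, plus strand), Mrps18b (chr17:35916391-35916690, minus strand) and Mrpl53 (chr6:83108858-83109157, plus strand) were called higher in tibialis anterior, and Mrps9 (chr1:42850983-42851282, plus strand) was called higher in adult heart. Each sequence is the RefSeq window on build GRCm38.p6 that ends shortly after the annotated start, read 5′ to 3′ on the gene's own strand. Capitals mark matches on either strand to 5 short motifs: GCGCATG, the core of the NRF1 site; CCGGAAG, the core bound by ETS factors such as GABPA; AAGATGG, the core of the YY1 site; CCAAT; and TATAAA.
Mrps10: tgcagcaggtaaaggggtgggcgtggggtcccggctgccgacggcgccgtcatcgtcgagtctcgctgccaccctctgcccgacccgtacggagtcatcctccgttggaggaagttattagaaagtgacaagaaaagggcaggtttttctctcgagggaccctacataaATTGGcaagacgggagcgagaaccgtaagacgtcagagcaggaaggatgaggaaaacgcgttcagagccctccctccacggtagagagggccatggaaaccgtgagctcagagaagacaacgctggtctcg
Mrps18b: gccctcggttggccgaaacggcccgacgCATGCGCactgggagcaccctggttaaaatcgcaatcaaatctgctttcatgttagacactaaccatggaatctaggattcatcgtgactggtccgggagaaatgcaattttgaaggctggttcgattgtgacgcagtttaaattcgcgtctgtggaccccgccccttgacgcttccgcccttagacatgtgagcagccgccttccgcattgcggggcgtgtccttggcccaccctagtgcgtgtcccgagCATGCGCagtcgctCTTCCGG
Mrpl53: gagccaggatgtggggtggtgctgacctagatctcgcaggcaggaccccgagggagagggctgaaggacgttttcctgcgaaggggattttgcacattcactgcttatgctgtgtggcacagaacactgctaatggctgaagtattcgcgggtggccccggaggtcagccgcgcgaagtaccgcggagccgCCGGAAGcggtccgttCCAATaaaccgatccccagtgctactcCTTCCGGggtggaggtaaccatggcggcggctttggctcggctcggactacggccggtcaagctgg
Mrps9: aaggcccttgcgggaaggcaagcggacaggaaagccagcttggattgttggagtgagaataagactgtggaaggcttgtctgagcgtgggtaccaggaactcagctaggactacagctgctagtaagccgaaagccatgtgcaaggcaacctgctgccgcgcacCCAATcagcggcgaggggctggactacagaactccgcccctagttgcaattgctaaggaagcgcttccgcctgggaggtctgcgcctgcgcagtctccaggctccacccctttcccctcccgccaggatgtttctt

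Mrps18b held 2 NRF1 cores, whose first bases lay at -222 and 29 from the start, and an ETS core at 43. Mrpl53 held ETS cores at -59 and -16 with a CCAAT at -43 between them, and Mrps10 and Mrps9 each held 1 CCAAT motif, at -81 and -86, and no match to the other motifs. The ETS core stood in 26 of the 71 promoters listed for 65 of the 73 genes, or 36.6%, against 16% of the 11435 promoters of named genes tested on the array and 8.86% of all 32851 promoters in the table. The YY1 core was present in 16.9% of the ribosomal protein promoters, against 6.72% and 6.34% in those sets, and the NRF1 core in 9.86%, against 6.38% and 3.91%. The CCAAT motif was no more frequent here (38%) than among the tested genes (37.3%), and TATAAA was found in 7.04% and 7.98%. In 20 of the 26 promoters with an ETS core a match began within 50 bases of the start, or 76.9%, against 61.9% of the promoters with the core among the tested genes. The ETS and YY1 cores can share the letters AAG, and they shared bases in 0 of the 71 promoters. By gene, 6 of the 15 genes called higher in tibialis anterior that have a listed promoter held the ETS core (40%), as did 26 of all 65 (40%). A match of letters is a description of the sequence, and no binding was measured.

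**Figure D1:**
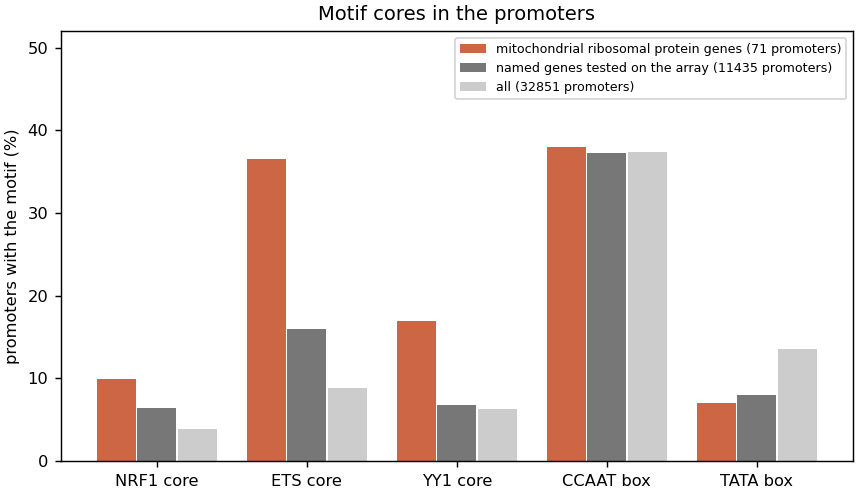
Share of promoters (%) that hold each of 5 motifs on either strand, for the 71 promoters of detected mitochondrial ribosomal protein genes, the 11435 promoters of named genes tested on the array and all 32851 promoters. The bars for the ETS core, at 36.6%, 16% and 8.86%, and for the YY1 core, at 16.9%, 6.72% and 6.34%, differ most, and those for the CCAAT box are level.

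All 6 groups are labelled male, yet Xist, which is transcribed from the inactive X, had a log2 intensity of 9.60 to 10.64 on all 6 arrays, and the Y-linked genes Eif2s3y, Kdm5d and Uty were detected on the P14 heart WT array alone. Tissue identity followed the labels: the summed intensity of 7 cardiomyocyte markers was 93203 to 118561 on the heart arrays and 10114.8 to 11184.3 in tibialis anterior, and that of 9 fast-muscle markers was 7851.13 to 12487.4 and 233548 to 242422. Within pairs, the 7 detected liver markers summed to 1139.08 on the WT and 8307.47 on the KO tibialis anterior array, and the 5 detected adipocyte markers to 629.172 and 2698.31. The adipocyte sums were 4662.63 and 5194.75 on the adult heart arrays, and 289.738 and 274.34 on the P14 heart arrays, WT first. Of 3 detected brown-fat markers, Ucp1 was detected on the adult heart arrays alone (9.86 and 10.40). Cidea read 10.57 and 11.28 there and 9.26 and 9.86 in P14 heart, and Cox7a1 read 14.14 to 14.73 on all arrays. The 2 detected airway markers summed to 7630.12 on the WT and 3311.61 on the KO adult heart array, and the 3 erythroid markers to 1899.56 and 734.916. The erythroid markers did not move together: Alas2 (10.69 and 9.03) and Slc4a1 (7.63 and 5.11) were lower in KO, and Hbb-b2 (5.53 and 7.46) was higher. On the P14 heart arrays all 9 fast-muscle markers were detected in KO and 6 of 9 in WT. Each read higher in KO there, from 5.26 in WT to 9.50 in KO for Tnnc2, 6.86 to 10.21 for Atp2a1 and 12.83 to 12.97 for Ckm. On the adult heart arrays 4 of 9 were detected in WT and 5 in KO. Atp2a1 read 5.49 in WT and 9.37 in KO there, Tnni2 5.67 and 8.77, Mylpf 4.91 and 7.37, and Ckm 12.99 and 12.89. The part of these differences in the results below was not tested.

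Set against each probe's own mean over the 6 arrays, the mitochondrial ribosomal protein probes were high on the tibialis anterior arrays and low on the WT heart arrays. Their median deviation on the log2 scale was -0.12 on the P14 heart WT array, 0.01 on P14 heart KO, -0.24 on adult heart WT, 0.01 on adult heart KO, 0.21 on tibialis anterior WT and 0.14 on tibialis anterior KO. The same median over all 20387 detected probes stayed between -0.04 and 0.01. The adult heart WT array gave the lowest value of the 6 for 55 of the 113 probes, whereas 12.8% of all probes were lowest there. The tibialis anterior WT array gave the lowest value for 5 of the 113, whereas 19.7% of all probes were lowest there. It gave the highest value for 41 of the 113, and the share of all probes highest there was not computed. Cytosolic ribosomal protein probes had medians of 0.02, 0.13, -0.26, 0.16, -0.07 and 0.09 in the same order of arrays, so they too were lowest on adult heart WT but were not high on tibialis anterior WT. The adult heart WT array enters every comparison with the adult heart, so some results below are also given without it. The counts of arrays that do not overlap, the split by subunit and the patterns of sign over the pairs are not. Nor is the fit of the genotype difference between muscle and hearts. In these whole-tissue samples fewer cells of a type and less RNA per cell cannot be told apart.

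**Figure D2:**
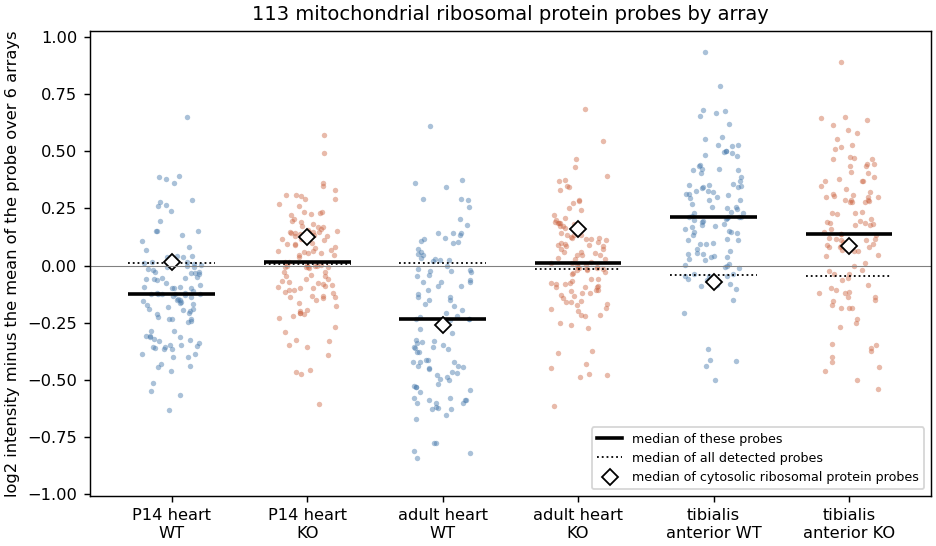
Log2 intensity of each of 113 mitochondrial ribosomal protein probes minus its mean over 6 arrays, by array (points). Thick lines give their median, dotted lines the median of all detected probes and diamonds that of cytosolic ribosomal protein probes. The thick line is lowest on adult heart WT (-0.24) and highest on tibialis anterior WT (0.21).

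Tibialis anterior was set against adult heart with limma on all 6 arrays, with setting and genotype as terms, so that the WT and KO arrays of a setting stand for its spread. At an adjusted p under 0.05, 30 of the 113 probes (18 genes) were called higher in tibialis anterior and 4 probes (4 genes) were called higher in adult heart. Over all probes 17.2% were called higher and 19.4% lower, so the shares here, 26.5% higher and 3.54% lower, leaned towards muscle. The median difference was 0.30 on the log2 scale, against -0.04 over all probes, and 86 of the 113 differences were above 0, against 47.2% of all probes. Both tibialis anterior arrays lay above both adult heart arrays for 61 probes (54.0%, against 32.1% of all probes) and below both for 16 (14.2%, against 36.8%). The lean was alike in both subunits, with 19 of 71 large-subunit probes called higher and 1 lower, and 11 of 42 small-subunit probes called higher and 3 lower. Of 79 cytosolic ribosomal protein probes, 12 were called higher and 8 lower.

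The size of this lean rested in part on the adult heart WT array. Without that array the median difference was 0.17. Most of the 30 probes were then no longer called higher, whereas most of the 4 stayed called higher in adult heart. The share of all probes called in that fit is not given here. Without the tibialis anterior WT array the median was 0.16, and many of the calls higher in muscle were lost. Read on the WT arrays alone the median was 0.50, with 87 of 113 probes above 0, and on the KO arrays alone it was 0.12, with 75 above 0, against 47.3% and 47.5% of all probes. All 113 probes taken one gene at a time by the brightest probe gave 18 genes called higher and 4 lower of 73.

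**Figure D3:**
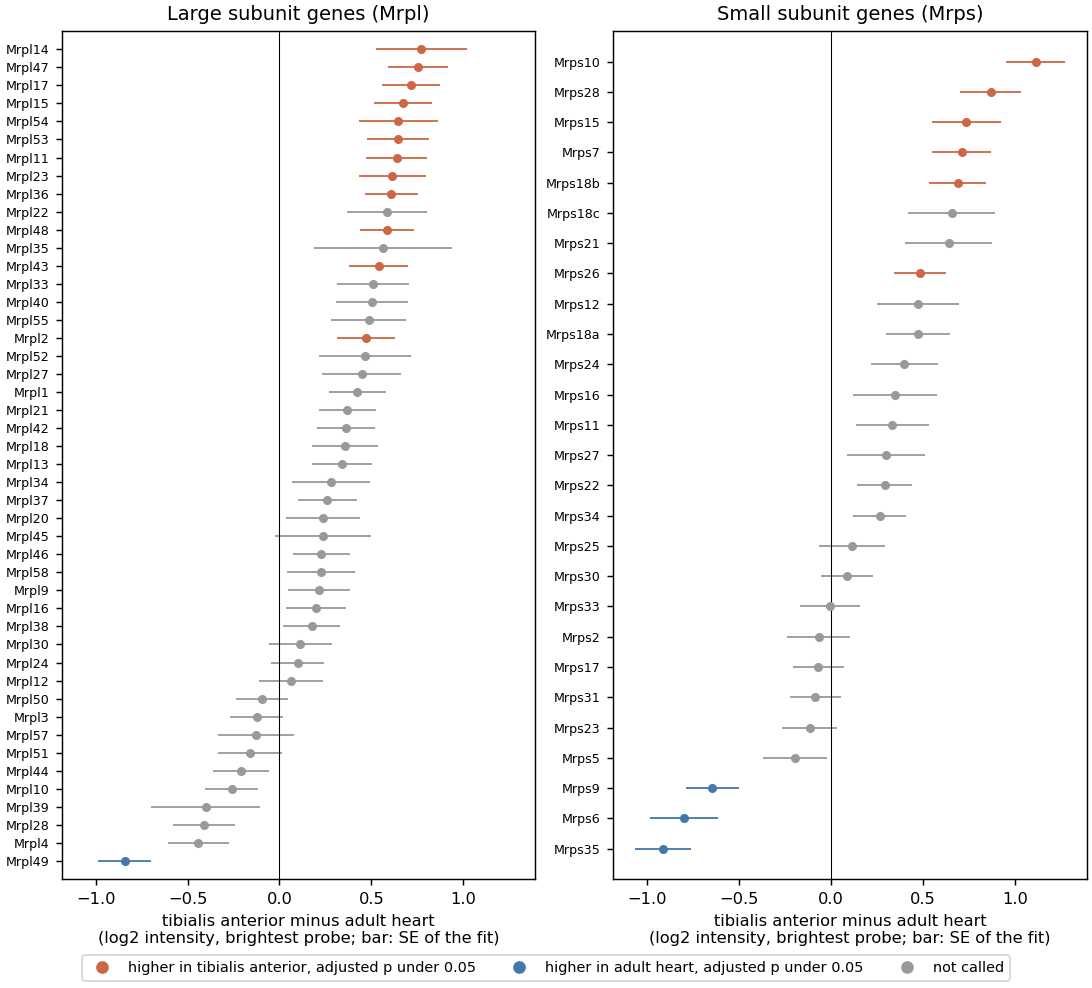
Difference in log2 intensity, tibialis anterior minus adult heart, for the brightest probe of each of 73 genes, with the SE of the limma fit as a bar. Of the large-subunit genes (left) 12 were called higher in tibialis anterior and 1, Mrpl49, was called higher in adult heart. Of the small-subunit genes (right) 6 and 3 were called, with Mrps10 (1.11) at the top and Mrps35 (-0.92) at the bottom.

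Among small-subunit genes, Mrps10, which encodes the counterpart of bacterial S10 in the head of the subunit, differed most. Its brightest probe (ILMN_2769630) read 9.19 and 9.42 in log2 intensity on the P14 heart WT and KO arrays, 8.80 and 9.05 on the adult heart arrays, and 10.10 and 9.98 on the tibialis anterior arrays. Both muscle arrays lay above all 4 heart arrays, and the difference from adult heart was 1.11 ± 0.16 (SE; 2.16-fold, limma adjusted p = 0.000676). The other 2 probes of Mrps10 gave 1.04 ± 0.17 and 0.98 ± 0.20 with adjusted p-values of 0.00131 and 0.00434. Probes of 1 gene share its transcript and are no replicates of each other, but all 3 pointed the same way and all 3 were called.

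Mrps18b encodes a mitochondria-specific branch of the S18 family that sits in the small subunit. Its probe ILMN_2677047 read 8.09 and 8.18 in P14 heart, 7.82 and 7.90 in adult heart, and 8.78 and 8.92 in tibialis anterior, WT first. The muscle arrays again exceeded every heart array, by 0.99 ± 0.15 over adult heart (adjusted p = 0.00106). Its other probes gave 0.95 and 0.69, both called. Of the other S18 paralogues, Mrps18c gave 0.66 ± 0.24 (adjusted p = 0.0562) and Mrps18a 0.47 ± 0.17 (adjusted p = 0.0621), neither past the threshold. The protein of Mrps18a was later assigned elsewhere than its symbol says, and all counts by subunit here follow the symbols.

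Further small-subunit genes called higher in muscle were Mrps28 (0.87 ± 0.17, adjusted p = 0.00329), Mrps15, the S15 counterpart (0.74), Mrps7, the S7 counterpart that nucleates the head (0.71, 1 of its 2 probes), and Mrps26 (0.64 and 0.48). Mrps28 read 9.84 and 10.09 in P14 heart, 9.57 and 10.08 in adult heart, and 10.71 and 10.68 in muscle. For it too the muscle arrays stood above all heart arrays, and the WT hearts were below the KO hearts. Without the adult heart WT array, Mrps28, Mrps15, Mrps7 and Mrps26 were no longer called.

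The large-subunit genes called higher span several regions of the subunit. Around the exit of the peptide tunnel were Mrpl17 (0.72 ± 0.16, adjusted p = 0.0065), Mrpl23 (0.61 ± 0.18, adjusted p = 0.0273) and Mrpl47, the L29 counterpart (0.75 and 0.82, adjusted p = 0.00619 and 0.0158). Mrpl17 read 9.69 and 9.94 in P14 heart, 9.52 and 10.02 in adult heart, and 10.44 and 10.53 in muscle. Its muscle arrays were above all 4 heart arrays.

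At the base of the stalk that receives translation factors, Mrpl11 differed by 0.64 ± 0.17 (adjusted p = 0.0148). Mrpl12, which forms the stalk itself, did not pass: it read 11.97 and 12.28 in P14 heart, 11.78 and 12.09 in adult heart, and 12.12 and 11.88 in muscle, a difference of 0.06 ± 0.17 (adjusted p = 0.814). The ranges of its muscle and heart arrays overlapped. Mrpl2, whose bacterial counterpart lies beside the peptidyl transferase centre, differed by 0.47 ± 0.16 (adjusted p = 0.0433). Mrpl14, at the face that meets the small subunit, differed by 0.77 ± 0.25 (adjusted p = 0.0371). Mrpl14 read 9.60 on adult heart WT, 10.74 on adult heart KO, and 10.99 and 10.90 in muscle, so the KO heart array lay close to the muscle arrays and the WT heart array far below them.

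Mitochondria-specific large-subunit proteins gave calls of like size. Mrpl53 differed by 0.64 ± 0.17 (adjusted p = 0.0154), Mrpl54 by 0.65 ± 0.22 (adjusted p = 0.0428), Mrpl43 by 0.74 and 0.54, and Mrpl48 by 0.58 and 0.48 on 2 of its 3 probes. Mrpl36, the counterpart of a small bacterial protein, differed by 0.61 ± 0.14 (adjusted p = 0.00962). Mrpl53 read 11.56 and 11.79 in P14 heart, 10.98 and 11.46 in adult heart, and 11.91 and 11.82 in muscle. Its muscle arrays exceeded the adult hearts clearly and the P14 KO heart by little.

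The 4 genes higher in adult heart were Mrps35, Mrps6, Mrps9 and Mrpl49. Mrps35, a mitochondria-specific protein of the small subunit, read 9.69 and 9.99 in P14 heart, 10.05 and 10.30 in adult heart, and 9.26 and 9.26 in muscle. All 4 heart arrays were above both muscle arrays, and the difference from adult heart was -0.92 ± 0.15 (adjusted p = 0.00147). Mrps6, the counterpart of bacterial S6, differed by -0.80 ± 0.18 (adjusted p = 0.00851). Mrps9, the counterpart of S9, whose tail reaches the tRNA in bacteria, read 10.62 and 10.67 in P14 heart, 10.83 and 10.63 in adult heart, and 10.12 and 10.05 in muscle. Its 4 heart arrays lay within a narrow band above both muscle arrays, with a difference of -0.65 ± 0.15 (adjusted p = 0.00754). Mrps9 was no longer called without the adult heart WT array, and Mrps6 without either KO array of the adult tissues, whereas Mrps35 and Mrpl49 were called under all 13 alternatives run.

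Different probes of 1 gene mostly moved together. Of 26 genes with at least 2 detected probes, 21 had all probes on 1 side of 0, and the median gap between the highest and the lowest probe was 0.15. Mrpl15, the L15 counterpart, had 7 probes, of which 5 were called, each at 0.67 or above, whereas the fit gave -0.77 for ILMN_1239507. That probe read 5.91 and 5.83 in P14 heart and 5.87 in adult heart WT, and was not well above background on adult heart KO or in muscle, so its difference is not a measured one. Among probes detected on all 6 arrays Mrpl49 had the widest gap: 1 of its 4 probes was called (-0.84 ± 0.14, adjusted p = 0.00167), and the other 3 gave -0.29, 0.12 and 0.13. The called probe (ILMN_2634295) read 9.80 and 9.85 in P14 heart, 10.17 and 10.27 in adult heart, and 9.37 and 9.39 in muscle, so the call for Mrpl49 rests on 1 of its probes. Mrps10, Mrps18b, Mrpl43, Mrpl47 and Mrps26 had every probe called.

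**Figure D4:**
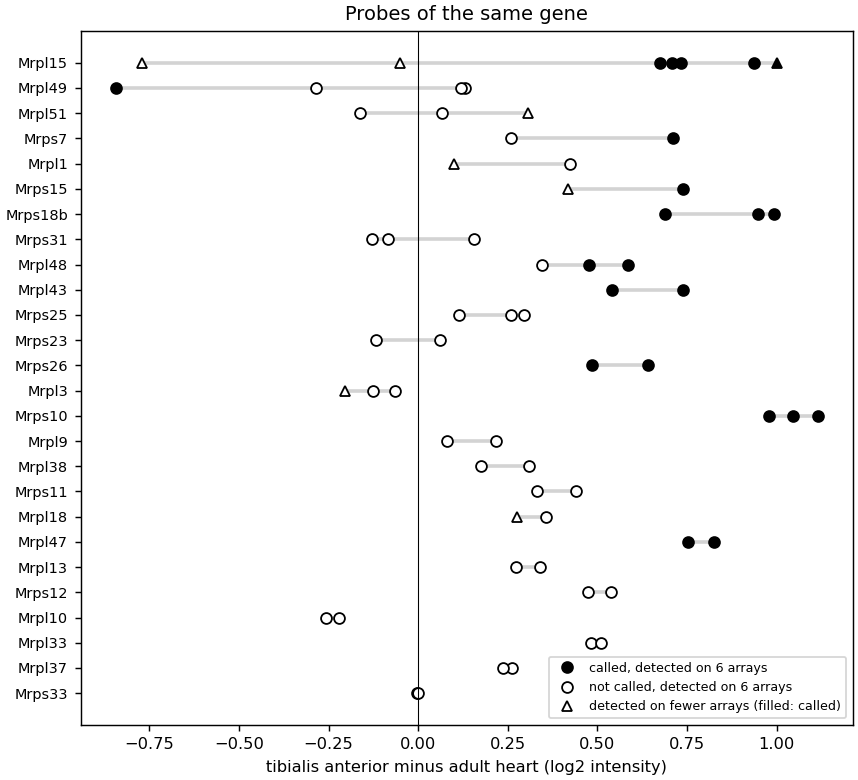
Tibialis anterior minus adult heart in log2 intensity for every detected probe of the 26 genes with more than 1, ordered by the gap between probes. Filled symbols were called by limma and triangles were detected on fewer than 6 arrays. Mrpl15 has probes on both sides of 0 from -0.77 upwards, Mrpl49 spans -0.84 to 0.13, while the 3 probes of Mrps10 lie between 0.98 and 1.11.

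Among genes of known disease or regulatory roles, neither Mrpl44 nor Mrps30 passed the threshold between muscle and heart. Mrpl44, an RNase III relative whose mutations cause hypertrophic cardiomyopathy in humans, read 9.29 and 9.50 in P14 heart, 9.50 and 9.60 in adult heart, and 9.38 and 9.29 in muscle, a difference of -0.21 ± 0.15 (adjusted p = 0.314). Mrps30, whose protein was later placed in the large subunit despite its name, read between 10.53 and 10.77 on all 6 arrays, with a difference of 0.09 ± 0.14 (adjusted p = 0.662). Mrpl45, which in mammalian structures holds the ribosome to the inner membrane, read 4.60 to 5.50 and was not well above background on adult heart KO. Mrps12, the S12 counterpart of the decoding centre, differed by 0.47 ± 0.22 and 0.54 ± 0.19 on its 2 probes (adjusted p = 0.126 and 0.0555).

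Other genes of mitochondrial gene expression, from lists of known factors, were read in the same comparison, in which 17.2% of all probes were called higher in muscle and 19.4% in heart. Of 4 ribosome subunits with other symbols, Chchd1 was called higher in tibialis anterior (0.79 ± 0.16, adjusted p = 0.00483), Dap3 was called higher in adult heart (-0.73 ± 0.14, adjusted p = 0.00387), and Ptcd3 (-0.12 ± 0.33) and Gadd45gip1 (-0.20 ± 0.25) were not called. Of 13 translation factors, 4 were called higher in muscle and 3 in heart. Those higher in muscle were the initiation factor Mtif3 (0.69), the recycling factor Gfm2 (0.68), the release factor Mtrf1 (0.64) and the deformylase Pdf (0.76). Those higher in heart were the inner-membrane insertase Oxa1l (-0.87), the recycling factor Mrrf (-0.68) and the elongation factor Tufm (-0.47).

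Of 22 assembly and rRNA modification genes, 0 were called higher in muscle and 3 higher in heart (Mrm1 at -0.73, Mettl17 at -0.52 and Dhx30 at -0.49). Of 14 mitochondrial aminoacyl-tRNA synthetases, Sars2 was called higher in muscle (0.73), and Cars2 (-0.75) and Fars2 (-0.60) were called higher in heart. Of 13 genes of mitochondrial transcription and its regulation, Slirp (0.84) and Tefm (0.47) were called higher in muscle. The coactivators Ppargc1a (-1.21) and Ppargc1b (-0.74), which drive mitochondrial biogenesis, and the RNA-binding protein Lrpprc (-0.71) were called higher in heart. Slirp and Lrpprc form a complex that stabilises mitochondrial mRNA, and their differences here had opposite signs.

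Between the 2 ages of heart few members differed. The same limma fit called 0 of 113 probes higher and 1 lower in adult than in P14 heart, where 5.56% of all probes were called higher and 4.75% lower. At an unadjusted p under 0.05 the counts were 3 higher and 7 lower, against 12.4% of all probes in each direction. The median difference was -0.08, against -0.02 over all probes. The 1 called gene was Mrpl27, whose bacterial counterpart reaches into the peptidyl transferase centre. Mrpl27 read 9.76 and 9.86 in P14 heart, 8.95 and 8.89 in adult heart, and 9.77 and 8.97 in tibialis anterior, WT first. Both adult hearts lay below both P14 hearts (-0.89 ± 0.22, adjusted p = 0.0321), while the WT muscle array read close to the P14 hearts and the KO muscle array close to the adult hearts.

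The next smallest p-values went to Mrpl43 (-0.51 ± 0.16, adjusted p = 0.0824), Mrpl49 (0.40 ± 0.14, adjusted p = 0.12), Mrps18c (-0.66 ± 0.24, adjusted p = 0.122) and Mrpl53 (-0.45 ± 0.17, adjusted p = 0.133), none past the threshold. Of the lists of other factors, Mtrf1 (0.68 ± 0.16, adjusted p = 0.0282) and the mitochondrial transcription factor Tfb2m (0.68 ± 0.15, adjusted p = 0.021) were called higher in adult heart. Mrpl27 was no longer called when either adult heart array or the P14 heart KO array was left out, nor in a fit with no trend (adjusted p of 0.0565 to 0.269), and without the adult heart WT array the median over the members turned to 0.063. With each array centred on its median in place of quantile normalization, 11 probes were called lower and the median was -0.32, where the median of all probes was itself -0.21. Adult heart arrays serve in both this comparison and the one with muscle.

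In the genotype comparison, the median member was higher in KO than in WT in both hearts and slightly lower in KO in muscle. In P14 heart the median KO minus WT difference was 0.17 in log2 intensity, and 89 of 113 probes were higher in KO, against 50.1% of the 18642 probes detected in that pair. In adult heart the median was 0.26 over the 112 probes detected in the pair, and 85 were higher, against 44.9% of all probes. In tibialis anterior the median was -0.06 and 42 of 109 were higher, against 45.6%. By subunit, 20 of 67 large-subunit probes were higher in that pair (median -0.075) and 22 of 42 small-subunit probes (median 0.003). Over all probes the medians were 0.00, -0.04 and -0.02. Cytosolic ribosomal protein probes had medians of 0.16, 0.44 and 0.13, so they shared the direction of the members in the hearts but not in muscle. Each median compares 1 pool of mice with 1 other, and whether it follows genotype or the pools was not tested.

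**Figure D5:**
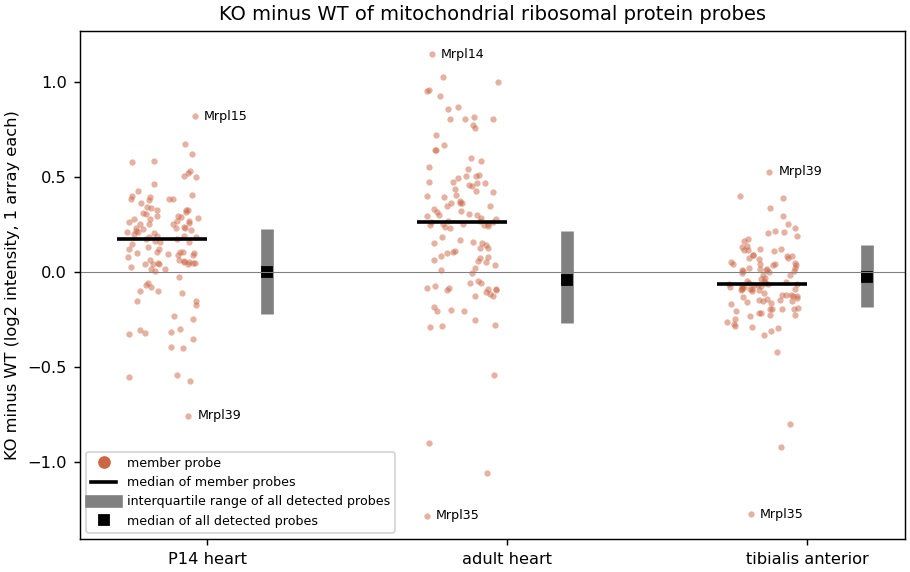
KO minus WT in log2 intensity of each mitochondrial ribosomal protein probe detected in the pair (points) with their median (line), in 3 settings with 1 array per genotype. Grey bars give the interquartile range of all detected probes and squares their median. The medians of these probes are 0.17, 0.26 and -0.06, and Mrpl35 is the lowest point in adult heart and in tibialis anterior.

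Single members rarely reached 2-fold in a pair. In the P14 heart pair 0 members were past 2-fold upwards in KO and 0 downwards, where 0.29% and 0.665% of all probes did. By normalized values the adult heart pair had 2 members past 2-fold upwards and 2 downwards, where all probes gave 1.25% and 0.553%. Of the 2 downwards, only Mrpl35 was detected on both arrays. The other, a probe of Mrpl15, was not well above background in KO, so only a bound can be given and 2-fold is not shown for it. The tibialis anterior pair had 0 upwards and 1 downwards, where all probes gave 2.05% and 0.545%. At 1.5-fold the counts were 3 upwards and 1 downwards in P14 heart (3.85% and 4.94% of all probes), 20 and 3 in adult heart (7.2% and 5.09%), and 0 and 3 in tibialis anterior (4.76% and 3.26%). These counts use 1 array a group and have no test.

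Mrpl35, the L35 counterpart in the large subunit, was lower by over 2-fold in both adult pairs and not at P14. It read 6.24 in WT and 6.66 in KO in P14 heart, 6.85 and 5.56 in adult heart, and 7.40 and 6.13 in tibialis anterior. The KO minus WT differences were 0.42, -1.29 and -1.28, with bead standard errors of 0.13 and 0.12 for the latter pair that cover the reading of an array only. In the limma fit over the 3 settings the difference was -0.71 ± 0.31 (adjusted p = 0.547). With no background correction Mrpl35 stayed under 2-fold, at -0.87 in adult heart and -0.96 in tibialis anterior, and the deposited processed values gave -0.88 and -0.97. Mrpl35 had 1 detected probe, so no other probe bears on these values.

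The largest upward differences in the adult heart pair were those of Mrpl14, from 9.60 in WT to 10.74 in KO (1.15), and of Mrps12, from 9.90 to 10.93 (1.03). The second probe of Mrps12 gave 0.81. Mrpl22, a tunnel-wall protein in bacteria, gave 0.96, Mrpl54 0.95, Mrpl52 0.93 and Mrpl55 0.87. At the low end after Mrpl35 were Mrpl3 (-0.54) and Mrpl57, Mrps2, Mrps18b and Mrpl50 (-0.29 to -0.21). The value of Mrpl3 came from a dimmer probe, and its brightest probe fell less, from 10.02 in WT to 9.89 in KO. The value of Mrps18b came from its dimmest detected probe. Its brightest probe went the other way and was higher in KO, as was its remaining detected probe, so Mrps18b was not lower in KO as a gene. Detected in WT only were ILMN_1239507 of Mrpl15, at least 1.85-fold brighter there, and the probe of Mrpl45, at least 1.44-fold brighter, the dimmer array being raised to its lowest detected signal. A further probe of Mrpl15 and 1 of Mrpl18 were also detected in WT only but lay too close to background for a fold, and 1 probe of Mrps15 was detected in KO only, at least 1.67-fold brighter.

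In P14 heart the highest KO minus WT differences were those of Mrpl15 (0.82 on 1 of its 7 probes), Mrpl55 (0.67), the peptidyl-tRNA hydrolase Mrpl58 (0.62), Mrpl40 (0.58), Mrpl43 (0.58) and Mrps21 (0.53). The lowest were those of Mrpl39 (-0.76), Mrpl13 (-0.54), Mrps25 (-0.40), Mrpl51 (-0.39), Mrps15 (-0.36) and Mrpl20 (-0.33). Those of Mrps25, Mrpl51 and Mrps15 came from a dimmer probe, and the brightest probe of each gene was slightly higher in KO. It read 7.29 in WT and 7.38 in KO for Mrps25, 7.15 and 7.24 for Mrpl51, and 7.58 and 7.62 for Mrps15. The brightest probe of Mrpl13 read 11.30 and 11.19. On the P14 heart KO array Mrpl39 read 4.88 and the dimmer probe of Mrps15 read 4.845, both close to the lowest detected signal there, 4.82. In tibialis anterior the highest were Mrpl1 (0.40), Mrpl15 (0.39), Mrps7 (0.33), Mrpl47 (0.29), Mrps25 (0.25) and Mrpl52 (0.23). The lowest there after Mrpl35 were Mrpl27 (-0.80), Mrps27 (-0.42), Mrpl49 (-0.33), Mrps10 (-0.31) and Mrps33 (-0.30). Several of these genes had other detected probes. The brightest probe went the other way for Mrpl1 (10.10 in WT and 9.87 in KO), Mrpl15 (11.19 and 11.06) and Mrpl47 (10.21 and 10.155). It also did so for Mrps25 (7.99 and 7.73) and Mrpl49 (9.37 and 9.39). It did not for Mrps7 (10.76 and 10.81), Mrps10 (10.10 and 9.98) or Mrps33 (11.62 and 11.40). Mrpl51 had 1 probe detected in muscle of WT only, at least 1.63-fold brighter there, and Mrpl39 was detected in muscle of KO only, at least 1.19-fold brighter.

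Over the 3 settings limma called 0 of the 113 probes higher in KO and 0 lower, where 0.00981% and 0.0491% of all 20387 probes were called. At an unadjusted p under 0.05 the counts were 10 higher and 2 lower, against 5.07% and 4.04% of all probes. The median was 0.11, against -0.02 over all probes, and 81 of 113 differences were above 0, against 46.3%, or 73 of 113 without the adult heart pair. The smallest adjusted p was 0.532, for Mrpl55 (0.54 ± 0.17), which read 8.10 and 8.77 in P14 heart, 7.91 and 8.78 in adult heart, and was 0.08 higher in KO in muscle. Next were Mrpl58 (0.47 ± 0.15), Mrpl40 (0.48 ± 0.16), Mrps34, whose mutations cause Leigh syndrome in humans (0.34 ± 0.12), and Mrps18a (0.37 ± 0.14), with adjusted p-values of 0.533 to 0.547. These 5 genes were higher in KO in 3 of 3 pairs. Leaving out a setting's pair gave 0 calls and medians of 0.04 without the adult heart pair, 0.09 without the P14 heart pair and 0.19 without the tibialis anterior pair.

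The pattern of signs over the 3 pairs differed from that of all probes. Higher in KO in both hearts and lower in muscle were 44 of 113 members (38.9%), against 16.2% of all tested probes. Higher in all 3 pairs were 26 (23.0%, against 13.9%), and lower in all 3 were 5 (4.42%, against 17.7%). The 5 were all 3 probes of Mrpl3, and the single probes of Mrpl50 and Mrps2. Signs were taken whether or not a probe was detected in the pair, and 1 Mrpl3 probe (ILMN_2571191) was detected on the P14 heart WT array alone. The brightest probe of Mrpl3 differed by only -0.09 ± 0.12 in the fit over the 3 settings. The difference itself, the KO minus WT difference in tibialis anterior minus that in the hearts, was fitted with limma with 1 residual degree of freedom. It called 0 members in either direction, where 0.446% of all probes were called higher and 0.0441% lower. At an unadjusted p under 0.05 there were 0 higher and 16 lower, against 5.36% and 5.1%, and the median was -0.27, against 0.00 over all probes.

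The smallest adjusted p of that difference was 0.223, for Mrps21, the S21 counterpart (-0.97 ± 0.25). Mrps21 read 10.46 in WT and 11.00 in KO in P14 heart, 10.18 and 10.99 in adult heart, and 11.37 and 11.08 in muscle. Its WT hearts lay below its KO hearts, and its WT muscle above its KO muscle. Mrpl27 (-0.83 ± 0.25), Mrpl51 (-1.01 ± 0.32), Mrpl14 (-0.92 ± 0.30) and Mrps16 (-0.85 ± 0.28) followed, with adjusted p-values of 0.32 to 0.34.

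Of the lists of other factors, 0 genes were called between genotypes in any list. Ptcd3, a small-subunit protein with RNA-binding repeats, read 8.31 and 8.24 in P14 heart, 8.60 and 6.88 in adult heart, and 8.29 and 6.95 in muscle, WT first. Its KO minus WT differences were -0.07, -1.72 and -1.35, and the fit gave -1.05 ± 0.27 (adjusted p = 0.452). Gadd45gip1, a large-subunit protein also named CRIF1, was lower in KO in 3 of 3 pairs (-0.29, -0.81 and -1.31; -0.80 ± 0.21 in the fit, adjusted p = 0.452). The leucyl-tRNA synthetase Lars2 gave -0.46 in P14 heart, where it was not well above background in KO, and 2.21 and 1.69 in the adult pairs (1.15 ± 0.41, adjusted p = 0.537).

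Members on chromosome 1, which carries Dnm3 and miR-214, did not stand together. Mrps14, 19 protein-coding genes from Dnm3, was not detected. Mrpl44 (463 genes away) gave KO minus WT differences of 0.21, 0.10 and -0.09 in P14 heart, adult heart and muscle, Mrps9 (695 genes) 0.05, -0.20 and -0.08, and Mrpl30 (727 genes) 0.06, 0.51 and -0.09. Mrpl15 (864 genes) gave differences of either sign on its probes. Over the settings none of these was called, with adjusted p-values of 0.721 for Mrpl30, 0.849 for Mrps9 and 0.86 for Mrpl44.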

How the data were processed

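Total RNA of 6 pools (3 mice each) was labelled and read on Illumina mouse bead arrays, 1 per group, so the number of arrays limits the precision and no group has a replicate. Per the file headers, the scanner values deposited by the authors are mean bead intensity, bead standard error, bead counts (a median of 41 per reported member and array, 15 to 77) and a detection p-value for each probe and array, not yet normalized. Between 32.9% and 39.7% of probes were detected per array. The authors also deposited processed intensity values, with array medians of 54.3 to 54.4. These are linear and uncentred: ranked within an array they follow the scanner signals, and they differ by at most 0.343% from the average of the 6 sorted arrays. Their software was not given in the sources used here. All columns were matched to samples through the labels, and 0 were left over.

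Scanner intensities were background-corrected with normexp (offset 16, negative controls inferred from detection p-values), quantile-normalized and set to log2 with limma 3.58.1 in R 4.3.3 (data.table version 1.17.8), with pandas 2.3.3, numpy 2.4.6 and matplotlib 3.10.9 in Python 3.11.15. The platform annotation names 34885 probes by 1 symbol and 18 by several, and 10378 are unnamed. All 76 member symbols were found in the RefSeq gene list of assembly GRCm38.p6, used for chromosomes and gene order. Probes detected on at least 1 array (20387, 17442 of them named) entered a limma fit (lmFit, then eBayes with a trend). Its terms were setting and genotype, which left 2 residual degrees of freedom, and a further fit added genotype in tibialis anterior. P-values were adjusted by Benjamini-Hochberg over all probes. They measure how 3 pairs of arrays vary. The fit was tested on simulated data.

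Named were up to 8 called members per direction and fit or the 5 smallest p-values, the 6 highest and lowest differences per pair among probes detected on both arrays, the widest gaps between probes, members on the chromosome of Dnm3, members of known role or reassigned subunit, and 2 to 4 genes of each other list. Others were named after their values were seen. Mrps36 and Mrpl41 are not analysed here. Levels of different probes are not compared. The members and lists were chosen with earlier results of these data known. Alternatives were other scaling, background, filters, the deposited values, the brightest probe per gene, no trend and arrays left out.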

Additional observations from a re-analysis of the deposited data

Results flagged for a closer look

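The median KO minus WT difference of the 113 mitochondrial ribosomal protein probes had opposite signs in heart and muscle. It was 0.1735 in log2 intensity in P14 heart and 0.2602 in adult heart, over all 113 probes, and -0.0624 in tibialis anterior. In the tibialis anterior pair it was -0.075 over the large-subunit probes, 0.003 over the small-subunit probes and -0.02 over all probes. Each value compares 1 WT with 1 KO array, so this difference between medians was not tested. Probe by probe, the limma fit of the difference called 0 members, with 16 lower and 0 higher at an unadjusted p under 0.05. On the same arrays the adipocyte and liver marker sums were higher in KO than in WT muscle, and their part was not tested.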

How the results depend on the processing

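The limit of these data is 1 array per group. The setting term of the fit already sets WT against KO within each setting. No paired analysis was possible because, beyond that term, each group has 1 array and the labels carry no replicate numbers. Of the summary values recomputed under alternatives, 158 kept their direction and size and 19 moved. Of the values of single named probes 451 stayed on the same side of the threshold, 74 lost their call and 0 reversed. The 451 include named probes that were never called, so they are no measure of how stable the calls were. Calls were lost most often in the tissue comparison without the adult heart WT array. For tibialis anterior minus adult heart, median centring (which shifts the median of all probes to -0.22) called 7 probes higher in heart, the brightest probe per gene left 18 called higher, and leaving out an array in turn gave 5 to 45 higher and 3 to 6 lower, with the fewest higher without the adult heart WT array. For adult minus P14 heart, median centring called 11 lower with a median of -0.32, a fit with no trend called 0 lower, and leaving out an array gave 0 to 2 lower and medians of -0.146 to 0.063. In the adult heart pair, median centring left 1 probe at least 2-fold higher in KO. There 0 were 2-fold lower with no background correction or in the deposited values, 1 among probes detected on both arrays and 1 by the brightest probe per gene. In the tibialis anterior pair 0 were 2-fold lower with no background correction and 0 in the deposited values, so that Mrpl35 was under 2-fold there in both adult pairs. The gene level holds fewer features; for the other moved values the cause was not tested. The WT and KO arrays read alone, the cytosolic probes and the count without the adult heart pair were added after the data were seen. A left-out array leaves its partner assumed to vary like the others.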
